A study of Mus musculus with 6 samples.

Results

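Crypts of chemically induced colonic adenomas were compared with crypts of the distal colon on day 2 of injury by dextran sulfate sodium (DSS), a polysaccharide that damages the colonic epithelium. The comparison took the 2 arrays labelled as tumor crypts and the 2 labelled as DSS crypts, 4 of the 6 arrays of the series, and all probe sets other than the array's own controls. The other 2 arrays carried crypts of untreated controls, which entered the estimate of the spread and are given as a baseline. Of 20380 probe sets that named 1 gene, those brighter than the median of 2 or more of the 6 arrays represented 7456 genes, and each of these was tested once.

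All 6 arrays came from male mice heterozygous for Lgr5-lacZ, in which lacZ reports the stem cell receptor gene Lgr5, so the groups share this allele. The sources used here give no strain and no wild-type group. DSS crypts were pooled from the distal colons of 2 mice per array, aged 6 to 8 weeks, after 2 days of 1% DSS in the drinking water, and control crypts from 2 mice of the same age on plain water. Tumor crypts were isolated from 12 pooled adenomas of 2 mice per array. Those mice had received azoxymethane (AOM), a colon carcinogen, at 12.5 mg per kg into the peritoneum at 6 to 8 weeks of age, then from 5 days later a cycle of 2% DSS for 5 days and water for 14 days, followed by further cycles with 1.5% and 1.0% DSS. Their label gives the age as 90 days after AOM. Tumor state, AOM, repeated DSS, age and the time since the last DSS therefore differ together between the groups and cannot be told apart. By the labels, the 2 pools of a group are biological replicates. The p-values rest on the spread between such pools within all 3 groups, which limma draws towards that of genes of similar intensity. The DSS arrays carry the tissue label of normal colon.

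The colonic crypt is a gland whose base holds Lgr5-positive stem cells kept by Wnt signalling, above which progenitors divide and mature into absorptive colonocytes, mucus-secreting goblet cells and hormone-secreting enteroendocrine cells. Wnt ligands stabilise beta-catenin, which acts with TCF/LEF factors on target genes, many of which are feedback inhibitors of the pathway, and adenomas of the AOM and DSS model are known for activating mutations of beta-catenin. Injured epithelium is known to switch on immediate early genes and ligands of the epidermal growth factor (EGF) receptor and, while it regenerates, targets of the coactivator YAP. On the arrays, median intensities were 94.8 and 106.8 in DSS crypts and 112.3 and 131.3 in tumor crypts, after the scaling that the authors had applied. Poly-A transcripts spiked into the RNA had a mean of 707.6 on DSS array 1, against 184 to 233 on the other 3. Actin probe sets at the 3' and 5' ends, whose log2 ratio reflects how intact the RNA is, gave 1.59 and 1.38 in DSS and 0.95 and 1.04 in tumor crypts. The same ratio of Gapdh was 0.23 and 0.07 in DSS and -0.05 and 0.04 in tumor crypts. The actin ratio thus differed between the groups and that of Gapdh less so, and the part of RNA quality in the results was not tested. Pearson's r of log2 intensities across genes, which are no independent replicates, was 0.978 between the DSS arrays, 0.959 between the tumor arrays and 0.809 to 0.867 between a DSS and a tumor array. The arrays' small number limits the precision: an exact permutation test of 2 against 2 arrays cannot give a 2-sided p below 0.333.

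Of the 12 largest rises and 12 largest falls in tumor crypts, 18 genes had a promoter in the RefSeq table of GRCm38.p6, and the 250 bases before their starts were searched on both strands for CTTTGA, the core bound by TCF/LEF factors, and TGANTCA, the site of AP-1 factors. A TCF/LEF core was found in 4 of them and an AP-1 site in 2. Among these 6 are the antimicrobial lectins Reg3g and Reg3b, the matrix protease Mmp7 and the chloride and bicarbonate exchanger Slc26a3, whose sequences are given because they stand among the largest differences of this comparison. Reg3g lies on chr6:78468875-78469124 (minus strand), Reg3b on chr6:78370635-78370884 (plus strand), Mmp7 on chr9:7691840-7692089 (plus strand, first-listed of 2 starts) and Slc26a3 on chr12:31437969-31438218 (plus strand). Each runs 5′ to 3′ towards the start, and capitals mark the match.
Reg3g: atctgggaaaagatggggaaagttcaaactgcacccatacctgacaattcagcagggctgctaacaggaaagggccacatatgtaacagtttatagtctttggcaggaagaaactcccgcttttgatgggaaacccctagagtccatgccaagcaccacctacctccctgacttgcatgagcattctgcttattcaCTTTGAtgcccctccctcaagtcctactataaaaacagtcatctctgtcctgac
Reg3b: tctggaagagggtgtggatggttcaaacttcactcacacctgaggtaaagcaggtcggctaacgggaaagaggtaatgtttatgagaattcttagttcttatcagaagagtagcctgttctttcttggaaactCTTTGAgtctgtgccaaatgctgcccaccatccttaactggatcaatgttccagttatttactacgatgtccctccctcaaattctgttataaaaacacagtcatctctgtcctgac
Mmp7: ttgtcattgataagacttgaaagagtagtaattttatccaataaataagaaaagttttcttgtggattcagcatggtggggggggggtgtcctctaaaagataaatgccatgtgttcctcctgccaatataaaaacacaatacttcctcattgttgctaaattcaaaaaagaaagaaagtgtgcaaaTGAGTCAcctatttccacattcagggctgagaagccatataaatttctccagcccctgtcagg
Slc26a3: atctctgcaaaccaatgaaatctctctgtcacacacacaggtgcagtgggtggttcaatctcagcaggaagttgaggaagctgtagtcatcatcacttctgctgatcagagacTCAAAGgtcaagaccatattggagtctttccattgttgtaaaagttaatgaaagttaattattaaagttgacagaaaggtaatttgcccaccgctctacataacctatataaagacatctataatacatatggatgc
The TCF/LEF core ended 49 bases before the start in Reg3g, 112 in Reg3b and, on the opposite strand, 132 in Slc26a3, and the AP-1 site ended 57 bases before the start in Mmp7. The upstream sequences of Reg3b and Reg3g were identical at 173 of 247 aligned positions (70%). The core CTTTGA stood in 10.7% of the 6129 tested genes with a promoter in the table, in 10.8% of those higher and 10.7% of those lower in tumor crypts, and in 14% of all 27025 promoters. TGANTCA stood in 4.44% of the tested genes, 5.05% of the higher, 5.91% of the lower and 6.87% of all promoters. These shares are descriptions of letters and were not tested.

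Tumor and DSS crypts differed in 1950 of 7456 genes (26.2%) by limma at a Benjamini-Hochberg adjusted p under 0.05. Of these, 1107 (14.8% of those tested) were higher and 843 (11.3%) lower in tumor crypts. In bulk RNA such as this, fewer cells of a type and less RNA per cell cannot be told apart. Differences above 1 on the log2 scale were found for 660 of the higher genes (8.85%) and 413 of the lower (5.54%). The arrays of the groups did not overlap in 4922 genes (66%), with the tumor arrays above in 2634 (35.3%) and below in 2288 (30.7%). Over all genes the median difference was 0.04, and the median of the single genes' standard errors was 0.21. The filter kept 278 genes through the tumor arrays alone, above the median on both of them and on no DSS or control array. These had to be higher in tumor crypts. Another 300 were above the median on no tumor array. Among the other 6878 genes, 854 were higher (12.4%) and 741 lower (10.8%). These still hold genes above the median on 1 DSS or control array, which also needed a tumor array to pass. Reg3b, Usp18 and Mrc1 are such genes, so counts without the flagged genes are not free of the filter. Both DSS arrays weighed on these counts: without DSS array 1 there were 534 higher and 361 lower genes, and without DSS array 2, 659 and 432. Without tumor array 2, 688 were higher and 574 lower. With 1 array left in a group, that array is assumed to vary like the others. When each array was centred on its median, which lowered the median difference of all genes by 0.11, the higher genes made up 46.5% of those called, against 56.8% without centring. The share was 49.3% with quantile normalization.

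**Figure D1:**
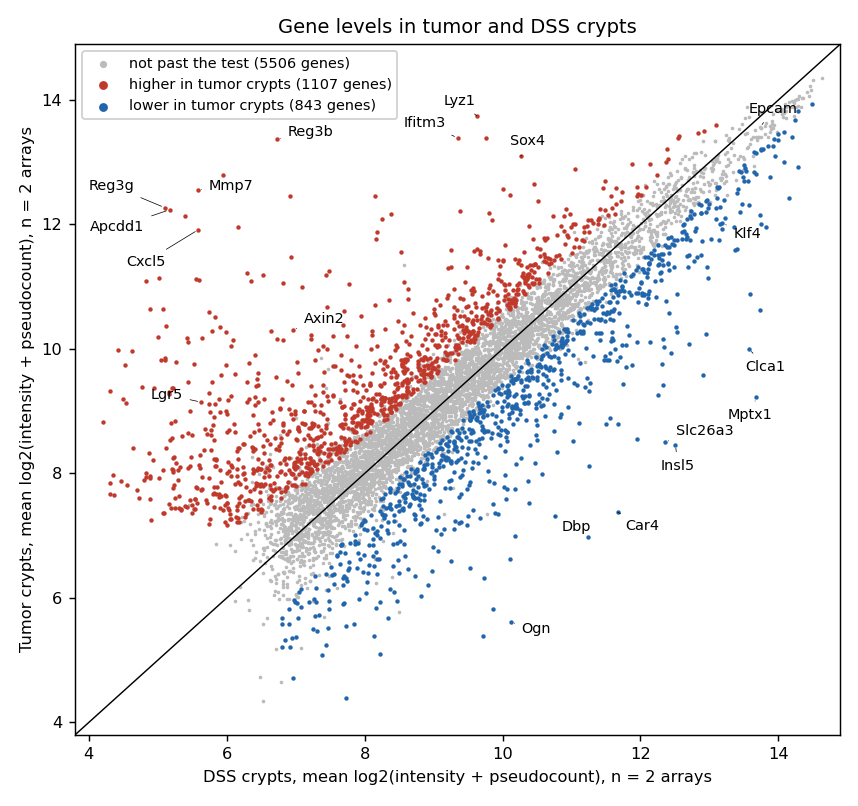
Each point is 1 of 7456 genes, with the mean of log2(intensity + pseudocount) over the 2 DSS arrays on the x axis and over the 2 tumor arrays on the y axis. Red points are the 1107 genes higher and blue points the 843 genes lower in tumor crypts by limma, grey points did not pass, and the line marks equal levels. Reg3g, Apcdd1 and Mmp7 stand at the upper left and Ogn, Car4 and Mptx1 at the lower right.

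In the following, intensities are given for array 1 and array 2 of a group in that order, and differences are tumor minus DSS on the scale of log2(intensity + 17.8), ± the standard error of the limma fit (n = 2 and 2 arrays). The added 17.8 makes differences of dim genes smaller than their ratios. Adjusted p-values are limma's. The counts of called genes in each list stand against 14.8% higher and 11.3% lower over all genes tested.

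Targets and feedback inhibitors of the Wnt pathway were higher in tumor crypts almost throughout. Of 36 listed genes 30 were tested, 3 lay below the filter and 3 had no probe set of their own, and 27 were higher and 0 lower, with a median difference of 2.85. Of these, 15 had passed the filter through the tumor arrays alone; among the other 15, 12 were higher, with a median of 1.67, against 0.02 over all genes of that kind. Axin2, a scaffold of the complex that destroys beta-catenin and a feedback target of the pathway, had 94.1 and 120.0 in DSS and 1067 and 1462 in tumor crypts. Both tumor arrays lay far above both DSS arrays, by 3.35 ± 0.22 (adjusted p = 7.39e-05), and a second, dim probe set of the gene gave 1.13. The transcription factor Sox4 had 1178 and 1249 in DSS and 8699 and 8777 in tumor crypts, a difference of 2.83 ± 0.17, and its arrays of a group lay close together. Myc, a driver of growth and proliferation, had 179.5 and 243 in DSS and 635 and 776 in tumor crypts (1.67 ± 0.23, adjusted p = 0.00157). The largest differences of the list were those of Apcdd1, the protease Mmp7, given with the Paneth cell genes, and Wif1. Apcdd1, which binds Wnt ligands, had 21.9 and 14.97 in DSS and 4335 and 5329.9 in tumor crypts and differed by 7.07 ± 0.29, with 4.48 to 6.75 on 3 further probe sets. Wif1, a secreted Wnt inhibitor, had 26.7 and 22.1 in DSS and 3896 and 5130.4 in tumor crypts (6.74 ± 0.24). Both passed the filter through the tumor arrays alone and lay close to the added 17.8 on the DSS arrays, so the size of these differences depends in part on it. Among the remaining feedback genes, the difference was 4.04 ± 0.32 for Nkd1, 4.28 ± 0.28 for Notum, 5.55 ± 0.34 for Dkk2 and 2.66 ± 0.25 for Rnf43. The 3 genes that did not pass were Lbh at -0.52 ± 0.39, the Hedgehog receptor Ptch1 at 0.33 ± 0.25 and Ephb4 at 0.62 ± 0.23. With a pseudocount at the median of all values, the list's median was 1.81.

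Stem cell genes of the crypt base were also higher in tumor crypts, 13 of the 16 tested against 1 lower, with a median of 1.93. Without the 2 that passed the filter through the tumor arrays alone, 11 of 14 were higher, with a median of 1.53. Of 23 listed genes 2 lay below the filter and 5 had no probe set of their own. Lgr5, the receptor of R-spondins that marks these stem cells, had 19.3 and 48.2 in DSS and 587 and 513 in tumor crypts and differed by 3.52 ± 0.32 (adjusted p = 0.000275). It was above the array median on no DSS or control array and, like Tnfrsf19, passed the filter through the tumor arrays alone. Its difference was 2.22 with a pseudocount at the median of all values. All groups carry the lacZ reporter at this gene. Ascl2, a Wnt-dependent transcription factor of the stem cell, had 85.5 and 81.4 in DSS and 479.8 and 499 in tumor crypts, with narrow spread in both groups and a difference of 2.32 ± 0.20. Phlda1 had 1152 and 1025 in DSS and 4726 and 6776 in tumor crypts (2.36 ± 0.20). Tnfrsf19, a receptor of the tumor necrosis factor family, had 0.937 and 11.1 in DSS and 443 and 669.5 in tumor crypts; its difference of 4.60 ± 0.40 was 2.53 with the larger pseudocount, and further probe sets gave 0.42 to 1.89. The water channel Aqp4 was the exception, with 3872 and 4966 in DSS and 2186 and 1595 in tumor crypts and a difference of -1.22 ± 0.20 (adjusted p = 0.00363). Slc12a2 at 0.33 ± 0.14 and the growth factor receptor inhibitor Lrig1 at -0.30 ± 0.17 did not pass.

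Of the targets of YAP and genes of regenerating epithelium, 21 of 29 were tested, 16 were higher in tumor crypts and 1 was lower, with a median of 1.29. Of those tested, 6 had passed the filter through the tumor arrays alone, and 10 of the other 15 were higher, with a median of 0.93. Ly6a, a marker of regenerating colonic epithelium, had no probe set of its own and was not tested. Clu, a secreted chaperone that marks regenerating cells, had 287 and 424 in DSS and 3186 and 2792 in tumor crypts, a difference of 3.03 ± 0.23 (adjusted p = 0.000138), and the lowest difference on 3 further probe sets was 3.56. The tight junction gene Cldn4 had 141 and 171 in DSS and 2011 and 2668 in tumor crypts (3.75 ± 0.21). In both genes the tumor arrays lay clear of the DSS arrays. The surface antigen Ly6d had 32.6 and 46.5 in DSS and 1109 and 1881 in tumor crypts (4.68 ± 0.36), and the membrane-associated signalling gene Basp1 had 41.7 and 93.4 in DSS and 1851 and 2554 in tumor crypts (4.75 ± 0.37). The YAP targets Ccn1 and Ccn2, secreted matricellular proteins, differed by 1.29 ± 0.39 and 1.99 ± 0.56. Anxa3 was lower, with 5289 and 5133 in DSS and 3476 and 3011 in tumor crypts and a difference of -0.68 ± 0.15, a call that ended without DSS array 1 (adjusted p = 0.0971), DSS array 2 (0.0706) or tumor array 2 (0.0688). Hbegf, a membrane-anchored ligand of the EGF receptor, had 1430.1 and 1308 in DSS and 931 and 1086 in tumor crypts, and control crypts had 524 and 469.9. Its tumor arrays lay below the DSS arrays and above the controls, but the difference of -0.44 ± 0.17 did not pass (adjusted p = 0.095); with median centring it was -0.55 and passed (adjusted p = 0.0481).

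**Figure D2:**
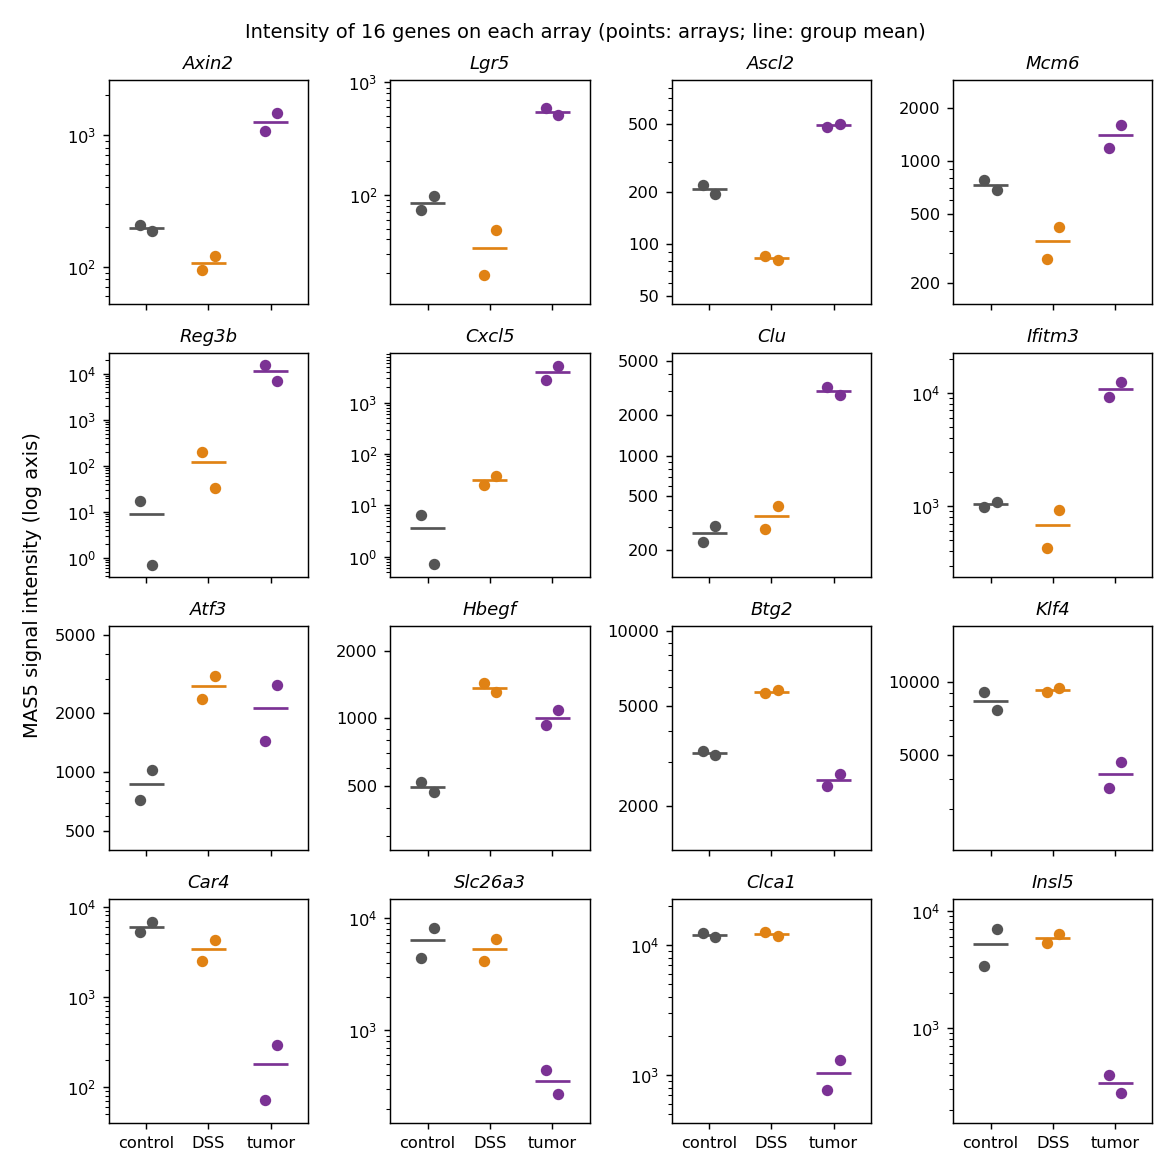
Intensities of 16 genes on a log axis, with 1 point per array and a line at the mean of the 2 arrays of control, DSS and tumor crypts. The tumor arrays lie above the DSS arrays for the Wnt, stem cell, replication and antimicrobial genes in the first rows, overlap with them for Atf3, and lie below them for Car4, Slc26a3, Clca1 and Insl5.

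Immediate early genes, transcribed within minutes of a stimulus without new protein synthesis, showed no common direction between the 2 conditions. Of 33 listed genes 28 were tested, 3 were higher and 5 lower in tumor crypts (10.7% and 17.9%, against the 14.8% and 11.3% of all genes), with a median of -0.24. The list's median was 0.47 in DSS minus control and 0.50 in tumor minus control, 2 comparisons that share the control arrays. The median between tumor and DSS was 0.09 without tumor array 1, -0.02 without DSS array 2, -0.46 without tumor array 2 and -0.36 without DSS array 1. With either DSS array left out, 1 gene was higher, without DSS array 2, 3 were lower, without tumor array 2, 8 were lower, and with means over probe sets 5 were higher. Btg2, an antiproliferative gene, had 5632 and 5829 in DSS and 2406 and 2682 in tumor crypts, with control crypts at 3320.2 and 3187, and differed by -1.17 ± 0.15 (adjusted p = 0.00106). The DSS arrays were the high ones here. Ier2 had 5631 and 5221 in DSS and 2868 and 3078 in tumor crypts and 3084 and 2896 in control crypts (-0.86 ± 0.15), so that tumor and control arrays lay in the same range. Klf4, a zinc finger factor of differentiated epithelium, had 9117 and 9515 in DSS and 3654 and 4668 in tumor crypts (-1.17 ± 0.17). Ier3, a gene induced by stress and NF-kB signals, differed the other way, with 206 and 194 in DSS and 1582 and 2749 in tumor crypts (3.27 ± 0.26, adjusted p = 0.000153).

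Among the AP-1 and Egr factors of the list, Jund was lower at -0.93 ± 0.20, and the others named here did not pass. Atf3, a stress-induced transcription factor, had 2379 and 3112 in DSS and 1445 and 2805 in tumor crypts and overlapped between the groups (-0.43 ± 0.32, adjusted p = 0.355); the difference was 0.04 without tumor array 1, -0.90 without tumor array 2 (adjusted p = 0.051) and -0.24 without DSS array 2. Egr1 had 6078 and 7012 in DSS and 4045 and 7848 in tumor crypts (-0.21 ± 0.28, adjusted p = 0.615), with tumor array 2 above both DSS arrays and tumor array 1 below them, and passed at -0.69 without tumor array 2 (adjusted p = 0.0428). Fos, a subunit of AP-1, had 11974 and 11225 in DSS and 7238 and 9818 in tumor crypts (-0.46 ± 0.18, adjusted p = 0.0904) and passed at -0.68 without tumor array 2 (adjusted p = 0.0375), against -0.24 without tumor array 1. The tumor arrays thus differed from each other in these genes by more than the DSS arrays did. Junb at -0.67 ± 0.22, Jun at -0.26 ± 0.15 and Fosb at -0.97 ± 0.62 did not pass either.

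In EGF receptor signalling and its feedback through the kinase ERK, 4 of 17 tested genes were higher and 2 lower in tumor crypts (23.5% and 11.8%, against 14.8% and 11.3% of all genes), with a median of 0.25. Of 31 listed genes 8 lay below the filter and 6 had no probe set of their own. Dusp10 had passed the filter through the tumor arrays alone, and Egf was above the median on no tumor array. Without them, 3 of 15 genes were higher and 1 lower. Among ligands, Tgfa differed by 1.09 ± 0.22, Egf by -1.61 ± 0.27 and Btc by 0.17 ± 0.21, the last not past the test. Egf had 135 and 154 in DSS and 35.4 and 34.8 in tumor crypts, and its difference was -0.82 with a pseudocount at the median of all values. The receptors Egfr (0.63 ± 0.30), Erbb2 (-0.57 ± 0.22) and Erbb3 (-0.48 ± 0.16) did not pass. Of the feedback genes, the phosphatase Dusp6 differed by 0.92 ± 0.22 and Dusp10 by 1.88 ± 0.34, and the inhibitor Spry2 by -0.99 ± 0.18. Dusp10 had 32.1 and 36.5 in DSS and 135 and 221 in tumor crypts; its difference was 0.99 with the larger pseudocount and 0.15 on its other probe set. With median centring 5 genes of this list were lower, and without DSS array 2, 2 were higher.

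Genes of DNA replication, mitosis and ribosome biogenesis were higher in tumor crypts. Among 38 tested replication genes of 45 listed, 30 were higher and 0 lower (median 1.02), against 14.8% and 11.3% of all genes. Without 1 that passed the filter through the tumor arrays alone, 29 of 37 were higher. Mcm6, a subunit of the replicative helicase, had 276 and 418 in DSS and 1188 and 1611 in tumor crypts (1.97 ± 0.24), and Mcm7, another subunit, had 761 and 837 in DSS and 2731 and 3343 in tumor crypts (1.90 ± 0.19, adjusted p = 0.000363). The helicase subunit Mcm3 and the ribonucleotide reductase subunit Rrm2 had the largest differences of the list, 2.53 ± 0.31 and 2.46 ± 0.27. Hells, a chromatin remodeler of replicating cells, had 248 and 301 in DSS and 1057 and 1029.5 in tumor crypts (1.87 ± 0.17). The epigenetic regulator Uhrf1 had 189 and 156 in DSS and 745 and 920.3 in tumor crypts (2.16 ± 0.24). In each of these genes both tumor arrays lay above both DSS arrays, as in 36 of the 38, against 35.3% of all genes. Of 37 tested mitosis genes 28 were higher and 0 lower (median 0.97). Cks1b, a subunit of cyclin-dependent kinases, had 759 and 844 in DSS and 2799 and 3100.1 in tumor crypts (1.86 ± 0.17) and the spindle checkpoint gene Mad2l1 had 757 and 694 in DSS and 2198 and 1757 in tumor crypts (1.42 ± 0.18). Top2a, the topoisomerase that untangles replicated DNA, had 707 and 660.0 in DSS and 1989.8 and 2284 in tumor crypts (1.62 ± 0.16), while its other probe set gave -0.23. The proliferation marker Mki67 had 962 and 1235 in DSS and 1349 and 2035 in tumor crypts. Its difference of 0.60 ± 0.23 missed the threshold (adjusted p = 0.09) and was called at 0.89 without tumor array 1 (adjusted p = 0.0229), but was 0.30 without tumor array 2 (adjusted p = 0.409).

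Of 35 tested ribosome biogenesis genes 22 were higher and 1 lower (median 0.80). The nucleolar protein Nop56 had 411 and 501 in DSS and 1454 and 1393 in tumor crypts (1.61 ± 0.19, adjusted p = 0.000757) and Gnl3, nucleostemin, had 631 and 593 in DSS and 1327 and 1208 in tumor crypts (1.03 ± 0.16). Utp20, a processing factor, was lower at -1.09 ± 0.26, a call that ended without DSS array 2 (adjusted p = 0.11) or tumor array 1 (0.0613). Calls in these lists depended on both DSS arrays. Without DSS array 1, 18 replication, 13 mitosis and 8 ribosome biogenesis genes were higher, and without DSS array 2, 19, 15 and 9. Without tumor array 1, 14 ribosome biogenesis genes were higher. Against control crypts, the lists' medians were -0.31, -0.01 and -0.24 in DSS crypts and 0.77, 1.01 and 0.51 in tumor crypts.

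Antimicrobial and acute phase genes included the largest differences of the comparison. Of 31 listed genes 18 were tested, 12 were higher and 2 lower in tumor crypts, with a median of 3.68. Of those tested, 7 had passed the filter through the tumor arrays alone. Among the other 11, 5 were higher and 2 lower, with a median of 0.87. This count can still hold genes that needed a tumor array to pass. Without the filter 30 genes could be tested and their median was 1.01. Reg3g, a lectin that kills Gram-positive bacteria, had 39.7 and 2.74 in DSS and 6512 and 3715 in tumor crypts, a difference of 7.17 ± 0.47 (adjusted p = 7.4e-05). Reg3b, a related lectin whose gene lies nearby on chromosome 6, had 203 and 32.8 in DSS and 15772 and 7062 in tumor crypts (6.65 ± 0.66), with 6.56 on a second probe set. DSS array 1 was above DSS array 2 for both lectins, and both tumor arrays were far above either. The control arrays were at 16.9 and 0.694 for Reg3b. Lcn2, which withholds iron from bacteria, had 6.36 and 25.7 in DSS and 1259 and 3941 in tumor crypts (6.12 ± 0.54), and S100a8, a subunit of calprotectin, had 4.91 and 17.6 in DSS and 698 and 6638 in tumor crypts (6.27 ± 0.88). Its partner S100a9 had 9.25 and 20.6 in DSS and 281 and 4555 in tumor crypts (5.18 ± 1.02), which became 3.21 without tumor array 2. These 3 were higher on tumor array 2 than on tumor array 1. Wfdc2, a protease inhibitor of the same family as Slpi, was lower, with 8324 and 6711 in DSS and 3531 and 2387 in tumor crypts (-1.36 ± 0.21), while Slpi differed by 1.33 ± 0.40. In this list 1 gene was lower without DSS array 1 or tumor array 2. The serum amyloids Saa1 and Saa2 (-0.42 ± 0.15 and -0.43 ± 0.27) did not pass.

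Some of these genes are known from Paneth cells, antimicrobial cells of the small intestine that the normal colon of the mouse lacks. Of 15 listed Paneth genes, 5 were tested, 4 were higher and 0 lower, 2 of them having passed the filter through the tumor arrays alone. Lysozyme Lyz1 had 545 and 1086 in DSS and 15371 and 12257 in tumor crypts (4.12 ± 0.40, adjusted p = 0.000333), with 4.78 and 1.64 on its other probe sets, the second of them dim. The phospholipase Pla2g2a had 66.3 and 55.8 in DSS and 1952 and 2896 in tumor crypts (4.93 ± 0.27). Mmp7, which activates defensins in Paneth cells and is also a Wnt target, had 34.6 and 25.8 in DSS and 6283 and 5709 in tumor crypts (6.97 ± 0.20). The lectin Itln1 had 169.8 and 49.4 in DSS and 2966 and 1521 in tumor crypts, with spread in both groups (4.25 ± 0.91, adjusted p = 0.0116). Defensins define these cells. The listed alpha-defensin with a probe set of its own, Defa3, had 12.6 and 3.07 in DSS and 9.45 and 1.43 in tumor crypts, below the added 17.8 on every array. Of the list, 8 genes had no probe set of their own, and Nupr1 did not pass (-0.29 ± 0.19). Near-identical family members can share probes, so Lyz1 and Lyz2 may not be fully separated.

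Chemokine and cytokine genes were divided. Of 37 listed genes 16 were tested and 20 lay below the filter, and 8 were higher and 4 lower. Without genes that passed the filter on one side alone, 2 of 8 were higher and 2 lower. Of all 16, 5 were higher and 2 lower without DSS array 1, and 2 were lower without DSS array 2. The attractants of neutrophils led the higher ones. Cxcl5 had 24.4 and 37.1 in DSS and 2812 and 5263 in tumor crypts (6.33 ± 0.34, adjusted p = 4.24e-05). Cxcl2 had 11 and 21.3 in DSS and 693 and 3572 in tumor crypts (5.57 ± 0.65), and Cxcl1 had 26.8 and 50.7 in DSS and 725 and 2073 in tumor crypts (4.50 ± 0.51). All 3 were higher on tumor array 2. The alarmin Il33 had 71.5 and 68.0 in DSS and 499 and 598 in tumor crypts, with a narrow spread (2.69 ± 0.27). The chemokine Ccl6 was lower, with 7767 and 6650.2 in DSS and 3791 and 2132 in tumor crypts (-1.33 ± 0.26), as were Cxcl12 (-2.24 ± 0.58), Ccl28 (-1.29 ± 0.26) and the cytokine Il18 (-1.15 ± 0.26). Of 15 listed neutrophil markers 2 were tested, S100a8 and S100a9, and both were higher, having passed the filter through the tumor arrays alone; 10 lay below the filter. The summed intensity of 12 such markers was 137.3 and 239.3 in DSS and 1173 and 12238 in tumor crypts. Without S100a8 and S100a9 the other 10 summed to 123.1 and 201.1, and to 194.0 and 1045. Without that pair tumor array 1 thus lay within the range of the DSS arrays and tumor array 2 above it. The granule enzyme Mpo lay below the added 17.8 on every array. Elane, neutrophil elastase, had 30.4 and 34.7 in DSS and 12.4 and 7.08 in tumor crypts, both tumor arrays lying below the DSS arrays. The others went the other way on tumor array 2. Ltf had 28.4 and 25.4 in DSS and 84.0 and 293 in tumor crypts. Il1r2 had 1.81 and 13.1 in DSS and 18.3 and 153 in tumor crypts. Csf3r, Ngp, Camp, Cxcr2, Mmp8 and Fpr2 were highest on tumor array 2. The part of neutrophils in the result was not tested.

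Among matrix proteases and their inhibitors, 12 of 24 tested genes were higher and 1 lower, and 5 of 17 were higher once the 7 that passed through the tumor arrays alone were left out. Plat, the tissue plasminogen activator, had 22.6 and 37.2 in DSS and 1617 and 3033 in tumor crypts (5.57 ± 0.34, adjusted p = 5.6e-05). Mmp14, a membrane-bound collagenase, had 572 and 646 in DSS and 1654 and 2349 in tumor crypts (1.67 ± 0.20), and the inhibitors Timp1 and Timp2 differed by 2.05 ± 0.42 and 2.19 ± 0.33. The collagenase Mmp13 had 6.26 and 4.43 in DSS and 307 and 2226 in tumor crypts, with tumor array 2 well above tumor array 1; its difference of 5.21 ± 0.77 was 3.13 with a pseudocount at the median of all values. Klk1, a kallikrein, was lower with 20653 and 19090.0 in DSS and 9839 and 6104 in tumor crypts (-1.36 ± 0.24). Without DSS array 1, or without tumor array 2, 7 genes of this list were higher.

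Genes of the mature absorptive colonocyte were lower in tumor crypts. Of 29 tested genes of 40 listed, 17 were lower and 1 higher, with a median of -1.11. Among 27 tested genes of ion, water and butyrate transport, which share several members with that list, 16 were lower and 3 higher (median -1.22, or -0.58 over 31 genes without the filter). Car4, a carbonic anhydrase of the apical membrane, had 2479.9 and 4233 in DSS and 72.1 and 290.0 in tumor crypts (-4.29 ± 0.51, adjusted p = 0.000844). The water channel Aqp8 had 1776 and 3248 in DSS and 78.8 and 147 in tumor crypts (-4.26 ± 0.36), and Slc26a3, which takes up chloride in exchange for bicarbonate, had 4180.0 and 6517 in DSS and 442 and 269.9 in tumor crypts (-3.85 ± 0.35). The DSS arrays were far above the tumor arrays in all 3. The carbonic anhydrase Car1 had 10359 and 10696 in DSS and 4257 and 2212 in tumor crypts (-1.77 ± 0.28), and Cyp2c55, a cytochrome of the colon, had 2273 and 2594 in DSS and 354 and 189 in tumor crypts (-3.14 ± 0.27). The butyrate transporter Slc5a8 had 4919.9 and 5176 in DSS and 835 and 854 in tumor crypts, with little spread in either group (-2.55 ± 0.14, adjusted p = 4.89e-05). The sulfate transporter Slc26a2 had 8745 and 7177 in DSS and 1295 and 1086 in tumor crypts (-2.72 ± 0.17) and the phosphate transporter Slc20a1 had 4622 and 5669.7 in DSS and 592 and 761 in tumor crypts (-2.90 ± 0.26).

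The lists were not uniform. Emp1, an epithelial membrane protein, was higher in tumor crypts, with 459.9 and 753 in DSS and 2988 and 3161 in tumor crypts (2.35 ± 0.36), and control crypts had 2407 and 1096, so that the DSS arrays were the low ones. Krt20, a keratin of the surface epithelium, had 2510.2 and 2820.2 in DSS and 3428 and 3667 in tumor crypts, and its difference of 0.41 ± 0.19 missed the threshold (adjusted p = 0.143). The brush border genes Vil1 (-0.10 ± 0.18) and Cdh17 (-0.15 ± 0.16) and the hormone Guca2b (-0.08 ± 0.22) did not pass either. Atp1b3, a sodium pump subunit, was higher at 0.55 ± 0.16, a call that ended in 6 settings, among them each tumor and DSS array left out. With median centring 1 transport gene was higher, and 0 with either DSS array or tumor array 2 left out.

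Secretory lineages were lower as well. Of 23 tested goblet cell genes of 30 listed, 15 were lower and 1 higher, with a median of -1.06. Muc2, the main gel-forming mucin, had no probe set of its own. Clca1, a secreted protein of mucus, had 12656 and 11693 in DSS and 769 and 1315 in tumor crypts (-3.57 ± 0.23, adjusted p = 7.39e-05). Atoh1, the factor that commits cells to the secretory fate, had 923 and 1156 in DSS and 379 and 254 in tumor crypts (-1.68 ± 0.22), and the granule gene Sytl2 had 1135 and 1089.5 in DSS and 544 and 504 in tumor crypts (-1.06 ± 0.16). The trefoil factor Tff3, the disulfide isomerase Agr2 and the lectin Zg16 were lower by smaller amounts (-0.86 ± 0.21, -0.87 ± 0.21 and -0.79 ± 0.20), while Spink4 (-0.23 ± 0.18) and the goblet cell factor Spdef (-0.66 ± 0.28) did not pass. The chemokine Ccl9 was higher at 1.44 ± 0.19. Without DSS array 1, 8 goblet cell genes were lower.

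Of 13 tested enteroendocrine genes of 30 listed, 10 were lower and 1 higher, with a median of -1.62; 5 of the 13 were above the median on no tumor array, and 6 of the other 8 were lower. The median was -0.88 with a pseudocount at the median of all values and -0.83 over 25 genes without the filter. Insl5, a peptide hormone of the distal colon, had 5278 and 6373 in DSS and 401 and 279 in tumor crypts (-4.04 ± 0.33), and Gcg, which encodes glucagon-like peptides, had 958 and 1370.3 in DSS and 112 and 107 in tumor crypts (-3.19 ± 0.22, adjusted p = 8.8e-05). The granule proteins Chgb and Chga differed by -1.73 ± 0.16 and -1.11 ± 0.23, the second a call that ended without DSS array 1 (adjusted p = 0.0622) or DSS array 2 (0.0602). Isl1, a LIM homeodomain factor, was the exception, with 160.1 and 209 in DSS and 974 and 896 in tumor crypts (2.24 ± 0.22). Without DSS array 2, 6 genes were lower. Of 18 tuft cell genes, markers of a chemosensory cell, 2 were tested. Avil, which encodes an actin-bundling protein of tuft cells, had 32.3 and 75.3 in DSS and 905 and 1363 in tumor crypts (4.05 ± 0.34). It had passed the filter through the tumor arrays alone. Alox5ap was at -0.16 ± 0.44, not past the test. Without the filter, 12 tuft cell genes had a median of -0.11, with 1 lower.

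Genes of fatty acid oxidation and PPAR targets were lower in 16 of 25 cases and higher in 2 (median -0.72). Acaa2, the last enzyme of the mitochondrial pathway, had 1544 and 1938 in DSS and 647 and 614 in tumor crypts (-1.43 ± 0.20). The dehydrogenase Acadm had 4963 and 4959 in DSS and 2742 and 2049 in tumor crypts (-1.06 ± 0.18), and the coactivator Ppargc1a had 1386 and 907 in DSS and 452 and 397 in tumor crypts (-1.37 ± 0.23). Pdk4, a kinase that shuts pyruvate out of the mitochondrion, was higher, with 13.0 and 27.2 in DSS and 173 and 336 in tumor crypts (2.80 ± 0.43). Its difference was 1.47 with a pseudocount at the median of all values, and it had passed the filter through the tumor arrays alone. Without DSS array 1, DSS array 2 or tumor array 2, 7, 9 and 10 genes were lower, and with either DSS array left out 1 was higher. Detoxification genes were lower in 23 of 31 cases and higher in 2 (median -1.17). The efflux pump Abcb1a had 3449 and 3069 in DSS and 466 and 392.2 in tumor crypts (-2.88 ± 0.17, adjusted p = 5.01e-05). The cytochrome Cyp2s1 had 768 and 823 in DSS and 136 and 140.1 in tumor crypts (-2.38 ± 0.18), and the carboxylesterase Ces2a had 994 and 1045 in DSS and 239 and 171 in tumor crypts (-2.23 ± 0.20). In these 3 genes both tumor arrays were below both DSS arrays. The higher pair was Gsta4 (0.76 ± 0.23) and Gstm5 (0.71 ± 0.21), and 0 genes of the list were higher with median centring, without a trend in the fit, or with either DSS array or tumor array 1 left out, and 1 without tumor array 2.

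**Figure D3:**
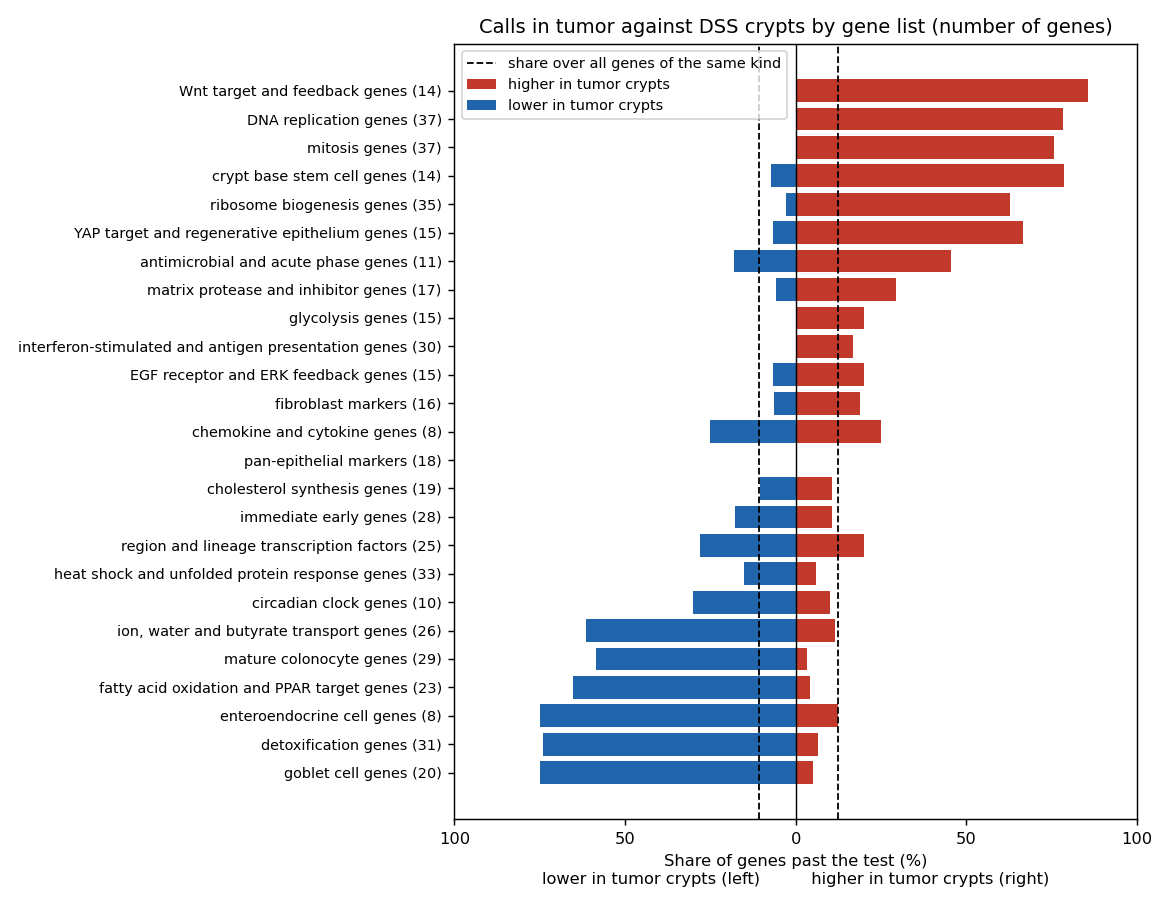
Share of genes that passed limma in each gene list, higher in tumor crypts to the right and lower to the left, with the number of genes in parentheses. Genes that passed the intensity filter on one side alone are left out, and the dashed lines mark the shares over all such genes, 12.4% higher and 10.8% lower. Wnt, stem cell, replication and mitosis genes reach furthest to the right and goblet cell, detoxification and enteroendocrine genes furthest to the left.

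Among transcription factors of gut region and lineage, 5 of 25 were higher and 7 lower (20% and 28%, against 14.8% and 11.3% of all genes). The nuclear receptor Nr5a2 had 1002 and 919 in DSS and 173 and 119.7 in tumor crypts (-2.59 ± 0.21), although its 3 further probe sets ranged from -1.82 to 0.35, and the vitamin D receptor Vdr had 1742 and 1899 in DSS and 469 and 486 in tumor crypts (-1.89 ± 0.17, adjusted p = 0.000237). The intestinal identity factor Cdx1 differed by -1.03 ± 0.20 and Hnf4a by -0.74 ± 0.22, while Cdx2 (-0.34 ± 0.44) and Gata6 (-0.09 ± 0.20) did not pass. Without DSS array 1, 2 factors were higher and 4 lower, and without DSS array 2, 3 were higher. Of 14 tested clock genes 4 were lower and 2 higher (28.6% and 14.3%). The number higher was 0 without DSS array 1, 4 without tumor array 1 and 1 without tumor array 2. Dbp, an output factor of the clock, had 1318 and 2221 in DSS and 133 and 149 in tumor crypts (-3.45 ± 0.33, adjusted p = 0.000346), Per3 had 428 and 667 in DSS and 110.3 and 116 in tumor crypts (-2.08 ± 0.37) and Tef had 847 and 1143 in DSS and 375 and 377 in tumor crypts (-1.35 ± 0.23). Further probe sets gave -0.24 and -0.17 for Per3 and -0.52 and -0.32 for Tef. The repressor Nfil3 was higher with 32.9 and 36.9 in DSS and 161 and 173 in tumor crypts (1.81 ± 0.39), a call that ended without DSS array 1 (adjusted p = 0.0591), and was at 0.95 with a pseudocount at the median of all values. Without genes that passed the filter on one side alone, Nfil3 and Per3 among them, 3 of 10 clock genes were lower and 1 higher. The labels used here give no hour of collection, so time of day and group cannot be told apart.

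Interferon-stimulated and antigen presentation genes were higher in 5 of 30 cases and lower in 0 (16.7% and 0%, against 14.8% and 11.3% of all genes), a share of higher genes near that of all genes. The membrane proteins Ifitm3, with 430.0 and 934 in DSS and 9197 and 12496 in tumor crypts (4.04 ± 0.33, adjusted p = 0.000177), and Ifitm1, with 200.1 and 405 in DSS and 3279 and 5708 in tumor crypts (3.84 ± 0.35), had the largest differences of the 5; both also belong to genes known from the intestinal stem cell and its Wnt response. The interferon-induced protease Usp18 had 81.0 and 47.3 in DSS and 357 and 897 in tumor crypts (2.87 ± 0.54). The 2 tumor arrays differed in this list: its median was 0.02 from the number 1 arrays and 1.00 from the number 2 arrays, and 12 genes were higher without tumor array 1, when the median was 1.17, while 3 were lower without tumor array 2. With either control array left out, or with median centring, 1 was lower. The antigen-presenting genes B2m (-0.29 ± 0.37) and H2-Ab1 (0.14 ± 0.60) did not pass.

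Heat shock and unfolded protein response genes, cholesterol synthesis genes and glycolysis genes had medians near that of all genes, 0.16, 0.05 and 0.09. Over all genes 14.8% were called higher and 11.3% lower, and of the cholesterol synthesis genes 10.5% in each direction. Among 34 stress genes 3 were higher and 5 lower (8.82% and 14.7%), or 3 lower with either DSS array left out. Hspa1a, an inducible chaperone, had 3198 and 2886 in DSS and 998 and 1202 in tumor crypts (-1.46 ± 0.20), Ern2, a stress sensor of goblet cells, had 1029.7 and 1115 in DSS and 485 and 429 in tumor crypts (-1.20 ± 0.17), and the small heat shock gene Hspb8 had 28.3 and 36.2 in DSS and 205 and 256 in tumor crypts (2.31 ± 0.37). The last had passed the filter through the tumor arrays alone and was 1.27 with a pseudocount at the median of all values. Of 19 cholesterol synthesis genes 2 were higher and 2 lower, with Stard4, a sterol carrier, at -1.15 ± 0.21, and 0 were higher without DSS array 2 or tumor array 2 or with quantile normalization. The number higher was 1 without DSS array 1 or tumor array 1, and 1 was lower with either DSS array left out. Of 15 glycolysis genes 3 were higher (20%) and 0 lower, led by the lactate dehydrogenase subunit Ldhb with 94.9 and 114 in DSS and 500.3 and 459 in tumor crypts (2.03 ± 0.22), while Ldha (-0.12 ± 0.16) and the glucose transporter Slc2a1 (0.19 ± 0.26) did not pass. Without DSS array 1 or tumor array 2, 1 glycolysis gene was higher, and without tumor array 2, 1 was lower.

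Several of the largest differences lay outside the lists. Mt4, a metallothionein of stratified epithelia, had 42.4 and 45.2 in DSS and 6606 and 7582 in tumor crypts (6.85 ± 0.18, adjusted p = 1.47e-06). The heparin-binding growth factor Ptn had 28.5 and 92.8 in DSS and 3219.5 and 4899 in tumor crypts (5.80 ± 0.69) and arginase, Arg1, had 8.68 and 15.5 in DSS and 1262 and 1999 in tumor crypts (5.76 ± 0.32, and 3.83 with a pseudocount at the median of all values). All 3 passed the filter through the tumor arrays alone. In the other direction, the matrix proteoglycan Ogn had 1106 and 1084 in DSS and 13.1 and 59.4 in tumor crypts (-4.51 ± 0.41), with -2.99 on its second probe set. The pentraxin Mptx1 had 17794 and 9664 in DSS and 444 and 753 in tumor crypts (-4.46 ± 0.33, adjusted p = 0.000133), and the sugar phosphate exchanger Slc37a2 had 964 and 868 in DSS and 26.1 and 55.5 in tumor crypts (-4.04 ± 0.29). Rps4l, which resembles the ribosomal protein gene Rps4x, had 790.1 and 851 in DSS and 3.82 and 63.3 in tumor crypts (-4.32 ± 0.51, and -2.75 with the larger pseudocount). The transglutaminase Tgm3 and the tubulin-binding gene Tppp3 differed by -3.42 ± 0.20 and -3.49 ± 0.27. Of these lower genes, Ogn, Slc37a2, Rps4l, Tgm3 and Tppp3 were above the median on no tumor array and passed the filter through the other arrays.

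Some genes called between tumor and DSS crypts had a DSS minus control difference of the opposite sign. That difference passed for 0 of 7456 genes by limma. The 6 genes in which it was largest were Sptssb, Ly6m, Emp1, Rgcc, Ascl2 and Mcm6, all with the DSS arrays below the control and tumor arrays, and Lgr5, Axin2, Hells and Cdca7 were among further genes with that order of arrays. Rgcc, a regulator of the cell cycle, had 549.5 and 592 in control, 160.1 and 261 in DSS and 909 and 857 in tumor crypts. Sptssb, a subunit of the enzyme that starts sphingolipid synthesis, had 684 and 221 in control, 58.9 and 148 in DSS and 1974 and 627 in tumor crypts, and spread widely within control and tumor crypts. Ly6m had 184 and 96.2 in control, 27.97 and 45.3 in DSS and 378 and 763 in tumor crypts, a difference of 3.37 ± 0.40 between tumor and DSS that was 2.18 with a pseudocount at the median of all values. DSS minus control and tumor minus DSS share the DSS arrays, so these values are side by side as a description, with no test.

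Markers of the epithelium passed in no case, while those of other cell types varied between arrays. Of 18 pan-epithelial markers 0 were called by limma, their median was -0.16, and Epcam, an epithelial adhesion gene, had 14732 and 12534 in DSS and 12781 and 11358 in tumor crypts (-0.17 ± 0.15, adjusted p = 0.419). The summed intensity of these markers was 129180 and 113156 in DSS and 107659 and 102972 in tumor crypts, the lower DSS sum lying above the higher tumor sum. Fibroblast markers summed to 4843 and 8982 in DSS and 10898 and 24193 in tumor crypts (21 genes). Much of the tumor sums came from Mgp, Vim and Fn1, and without them the sums were 4186 and 7442, and 1503 and 9593. Mgp, a matrix Gla protein, had 51.2 and 193 in DSS and 5199 and 6073 in tumor crypts (5.55 ± 0.62, adjusted p = 0.000683), and the intermediate filament Vim had 433 and 965 in DSS and 3477 and 6413 in tumor crypts (2.83 ± 0.52). The collagen genes did not follow them: Col1a1, below the filter, had 39.96 and 83.0 in DSS and 26.1 and 249 in tumor crypts, and Col6a2 and Col3a1 differed by -1.92 ± 0.77 and -0.74 ± 0.77, not past the test. Tumor array 1 was the lowest of the 4 for Col1a1, and tumor array 2 the highest. Dermatopontin, Dpt, was lower at -2.33 ± 0.66, a call that ended with either DSS array left out or without the filter. Its difference was -1.33 with a pseudocount at the median of all values, -1.11 without tumor array 1 and -3.55 without tumor array 2. Without tumor array 2, 9 of 17 fibroblast markers were lower.

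Smooth muscle markers summed to 2397 and 5465 in DSS and 1007 and 2291 in tumor crypts (12 genes); 0 of 8 tested were called by limma, although both tumor arrays were below both DSS arrays in 7 of them (30.7% of all genes). Their median was -1.63, or -1.41 from the number 1 arrays and -1.69 from the number 2 arrays, and it was -0.89 without DSS array 2 and -1.03 without tumor array 1. Without tumor array 2, or without control array 1, 2 were lower, and without control array 2, 1. Endothelial markers (13 genes) summed to 398.1 and 890.2, and to 777.1 and 2412. Markers of macrophages and dendritic cells summed to 2048.5 and 2988 in DSS and 5678 and 11590.4 in tumor crypts (18 genes), and to 452.0 and 1342, and 902.8 and 3791, without Lyz2 and Cd14. Their receptor Csf1r had 54.5 and 263 in DSS and 144 and 717 in tumor crypts, and its difference of 1.28 ± 0.80 missed the threshold. Lyz2, the lysozyme of myeloid cells, had 148 and 487 in DSS and 2755 and 5154 in tumor crypts (3.71 ± 0.66), and 3 of 7 tested markers were higher, but 1 with either DSS array left out or without tumor array 2, and 5 without tumor array 1. The pan-leukocyte gene Ptprc had 82.7 and 225 in DSS and 73.4 and 415 in tumor crypts and overlapped between the groups (0.35 ± 0.67, adjusted p = 0.74), at 1.47 without tumor array 1 and -0.78 without tumor array 2. T and NK cell markers summed to 221.2 and 486.0, and to 301.2 and 536.1 (13 genes), and B and plasma cell markers to 203.3 and 3622, and 262.8 and 2103 (9 genes). Of the B and plasma cell sums, Jchain alone made up 95.4 and 3094 in DSS and 97.5 and 1637 in tumor crypts. Of 12 enteric neuron and glia markers none was tested, since 8 lay below the filter and 4 had no probe set of their own. In both groups array 2 was higher than array 1 in each of the fibroblast, smooth muscle, endothelial, myeloid and lymphoid sums. The part of these cells in the differences above was not tested.

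**Figure D4:**
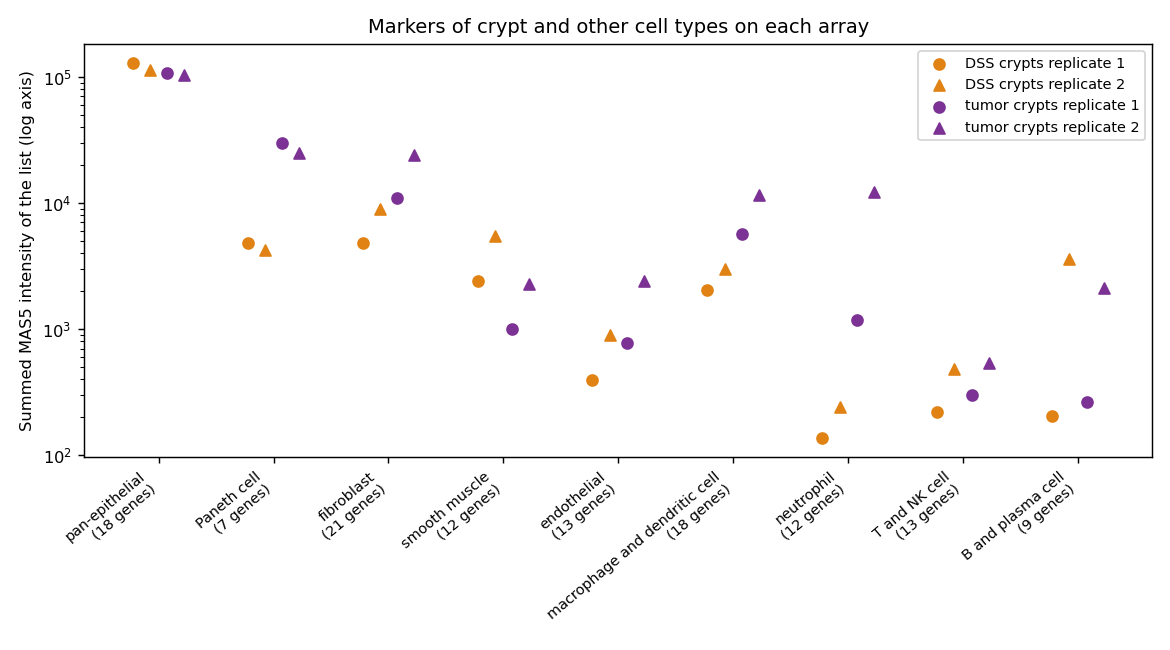
Summed intensity of cell type markers on each array, on a log axis, with DSS crypts in orange and tumor crypts in purple; circles are array 1 and triangles array 2. Pan-epithelial sums lie between 102972 and 129180 on all 4 arrays, Paneth cell sums are higher on both tumor arrays, and neutrophil sums reach 12238 on tumor array 2.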

How the data were processed

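RNA of pooled mouse colonic crypts was labelled with biotin and measured on Affymetrix arrays. The authors deposited 1 MAS5 signal intensity per probe set on a linear scale; MAS5 is named in the submitters' processing notes, whose version is not given in the sources used here. The trimmed mean of each array, without the top and bottom 2%, was about 500.2, as computed from the values. No detection calls were used.

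Of 22690 probe sets, 64 controls were set aside, and 20380 named 1 gene, 691 several and 1555 none; 99.9% of the first had their gene ID in the RefSeq table. Intensities were taken as log2(intensity + 17.8), the addition being the 25th percentile of the table. A probe set was kept where it exceeded the median of 2 or more arrays (12146 did), and the one of highest mean stood for its gene. No further normalization was applied. R 4.3.3 and limma 3.58.1 fitted all 3 groups together, with a trend on intensity, 3 residual degrees of freedom and 2-sided tests, adjusted by Benjamini-Hochberg over 7456 genes. The script was tested on simulated data. Python 3.11.15 with matplotlib 3.10.9 drew the figures.

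The members of the comparison and the gene lists (35 lists with 883 genes, of which 584 were tested, 196 lay below the filter and 103 had no probe set of their own) were chosen with earlier results of these data known. Named were the 12 largest differences per direction among called genes without overlap of arrays, up to 4 called members of smallest p per list and 1 in the other direction, 20 fixed genes and 6 with an opposite DSS minus control difference. Genes outside this rule, most of them given as a difference alone, were chosen after their values were seen. Lists are described by counts and medians, with no test of their own. Alternatives were each array left out, other pseudocounts and filters, quantile normalization, median centring, means over probe sets, no trend, a fit of the compared groups alone and a replicate block.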

Additional observations from a re-analysis of the deposited data

How the results depend on the processing

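Under the alternatives tried, the values of the named genes stayed on the same side of the threshold in 2283 cases, lost the call in 63, gained it in 7 and reversed a call in 0. With the 75th percentile filter 4160 genes were tested, and 595 were higher and 665 lower, fewer genes being tested. Leaving out each array in turn gave 534 to 1104 higher and 361 to 823 lower genes, the lowest both without DSS array 1; the cause was not tested. Of the 1107 higher and 843 lower genes, 531 and 348 kept their call there. Arrays of tumor and DSS crypts with the same number deviated together (r = 0.44 across genes), but the labels do not tie the numbers to a day or litter, and 2 pairs cannot settle a pairing. With the replicate block, 1248 genes were higher and 960 lower in the fit of 3 groups, and 1633 and 1307 in the 2 compared groups alone, where 1 residual degree of freedom remained. With that block 7 of 8 smooth muscle markers were lower and 6 of 7 macrophage and dendritic cell markers higher. Dim probe sets carry background signal, and without detection calls no lower limit of measurement could be set.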
